A study of Mus musculus with 18 samples.

Results

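Fibroblast growth factor (FGF) genes were followed in newly made RNA of mouse embryonic stem cells after the ERK kinase pathway was switched on. The 9 genes described here are 6 ligands, Fgf4, Fgf5, Fgf8, Fgf10, Fgf15 and Fgf17, and 3 receptors, Fgfr1, Fgfr3 and Fgfr4. They were chosen by gene symbol from the 25897 symbols of the deposited count table, and each symbol had 1 row. Of the 9 genes, 7 had enough counts to be tested, and Fgf5 and Fgf15 did not pass the filter on low counts.

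The cells were of the E14tg2a line, of 129SV background, with Med24 knocked out, a subunit of the Mediator complex that connects transcription factors with RNA polymerase II. All of them carried a FLAG-Med24 cDNA under a TET promoter and cRAF-ErT2, a RAF kinase that 4-hydroxytamoxifen (4OHT) activates and that lies upstream of ERK. The 6 groups of 3 libraries were rescued cells (doxycycline at 500 nM, so that the cDNA was on) and knockout cells (no doxycycline), each without 4OHT (0 h) and after 250 nM 4OHT for 2 h or 8 h. Every group had been grown in serum with LIF and 2 µM Chir99021, and then for 24 h in serum and LIF with 250 nM PD173074, an inhibitor of FGF receptors. RNA was labelled with 5 mM ethynyl uridine for 15 min and captured, so the values measure recent transcription. Doxycycline differed wherever Med24 did, so their effects cannot be told apart. Within a group the libraries are named by clone letter, A, B or C.

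FGF ligands are secreted proteins that bind receptor tyrosine kinases together with heparan sulfate, and the receptors pass the signal through the adaptors FRS2 and GRB2 to RAS, RAF, MEK and ERK. In mouse embryonic stem cells FGF4 is the main ligand that the cells make for themselves, and its signal through FGFR1 is known to move them away from naive self-renewal. FGF receptors lie above RAF in this pathway, and 4OHT acts on the RAF fusion. How far the inhibitor blocked the receptors was not measured here.

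Promoter sequences are shown for the 3 ligands that had a RefSeq start whose upstream 250 bases lie outside the annotated exons of the same gene. Exons of other genes were not checked. The sequences are shown because the genes with the largest falls from 0 h (Fgf4 and Fgf10) and the late rise from near 0 (Fgf5) are among them. The sequences run 5′ to 3′ on the plus strand up to the base before the start, in build GRCm38.p6 of RefSeq. Capitals mark the GC box GGGCGG and the ETS core CCGGAA, on either strand.
Fgf4: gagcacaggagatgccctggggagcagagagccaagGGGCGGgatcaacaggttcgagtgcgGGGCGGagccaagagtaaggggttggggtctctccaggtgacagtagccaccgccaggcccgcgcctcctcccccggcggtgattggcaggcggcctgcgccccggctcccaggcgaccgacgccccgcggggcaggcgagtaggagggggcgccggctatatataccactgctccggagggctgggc
Fgf10: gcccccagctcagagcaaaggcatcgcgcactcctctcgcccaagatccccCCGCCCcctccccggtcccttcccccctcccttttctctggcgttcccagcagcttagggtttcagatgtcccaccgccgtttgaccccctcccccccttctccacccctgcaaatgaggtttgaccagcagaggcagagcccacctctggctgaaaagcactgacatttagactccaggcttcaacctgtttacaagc
Fgf5: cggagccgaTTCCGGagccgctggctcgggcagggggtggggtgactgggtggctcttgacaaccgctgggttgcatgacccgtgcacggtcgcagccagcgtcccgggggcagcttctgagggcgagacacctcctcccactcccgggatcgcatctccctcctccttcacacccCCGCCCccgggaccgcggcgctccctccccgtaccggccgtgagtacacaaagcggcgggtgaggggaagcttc

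The Fgf4 window lies at chr7:144861136-144861385, the Fgf10 window at chr13:118714449-118714698 and the Fgf5 window at chr5:98253934-98254183. The Fgf4 and Fgf10 windows lie inside the spans of their annotated gene models, which begin further upstream. Fgf4 held 2 GC boxes, which began 214 and 188 bases upstream of the start, and had a GC content of 71.2%. Fgf10 held 1 GC box, 199 bases upstream, and had a GC content of 61.2%. Fgf5 held 1 GC box, 74 bases upstream, and 1 ETS core, 241 bases upstream, and had a GC content of 70.8%. Over all 32851 RefSeq promoter windows of this length the median GC content was 52.4%, and 32.7% held a GC box. The ETS core, the letters bound by ETS factors such as those that ERK phosphorylates, was in 12% of all windows. None of the 3 windows held an AP-1 site TGANTCA (6.75% of all windows), an EGR site GCGNGGGCG (4.7%), the CArG box of SRF (1.47%) or an octamer ATGCAAAT (1.6%), on either strand. Fgfr4 had 1 window, with an ETS core 178 bases upstream and 2 GC boxes, and Fgfr3 had 2 windows with GC boxes, 1 of which also held an EGR site 63 bases upstream. The Fgfr4 window and 1 of the Fgfr3 windows overlap annotated exons, so they are described and not printed. The other Fgfr3 window does not overlap them and is not printed either, as only ligand windows are shown. These matches describe letters only and were not tied to binding of any factor.

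Library totals ran from 6691177 to 14541145 counts. The floor was set at 3 counts, about the upper 95% counting bound on a count of 0. In these libraries it corresponds to 0.196 to 0.629 CPM (counts scaled to library size with edgeR's TMM factors). Med24 was at 548 ± 47 CPM (SD, n = 3) in rescued cells at 0 h and at 38.9 ± 3.1 in knockout cells. In rescued cells it rose to 1630 ± 130 CPM at 2 h and was at 404 ± 4 CPM at 8 h, so that it was 14-fold, 35.2-fold and 10.2-fold lower in knockout cells at 0 h, 2 h and 8 h. A set of 13 abundant genes that vary together took 17.7% to 24% of the counts in 15 libraries, and 34.2% in knockout 2 h A, 36.4% in knockout 8 h B and 43.9% in knockout 8 h C. Leaving out these 3 libraries leaves 1 library at knockout 8 h, which is then assumed to vary like the other groups. Summed CPM of 10 pluripotency markers was 2700 to 2730 in rescued and 2440 to 2470 in knockout cells at 0 h, all 10 above 1 CPM. Fibroblast markers summed to at most 8.77 CPM in any library, with Lum at 0 in every group. Primitive endoderm markers summed to 34.9 to 37.4 CPM in rescued and 59.8 to 73.6 CPM in knockout cells at 0 h, and 2-cell-like markers to 0 to 0.278 and 1.72 to 2.18 CPM. In such bulk libraries fewer cells of a type and less RNA per cell cannot be told apart.

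Before 4OHT the FGF genes differed over a wide range of level. Scaled to exon length, Fgf4 stood first in rescued cells, at 104 ± 9.6 CPM per kb (SD, n = 3), followed by Fgfr1 at 19.5 ± 0.42, Fgf17 at 11.1 ± 1.3 and Fgf10 at 2.97 ± 0.33. The other 5 genes were all below 1 CPM per kb, from Fgfr3 at 0.371 ± 0.057 to Fgf5 at 0.0832 ± 0.053, and neighbours in that lower order differed by less than the sum of their SDs. Each step among the first 4 was larger than that sum. After 8 h of 4OHT the order in rescued cells was Fgf17 at 15.4 ± 0.76, Fgf4 at 12.9 ± 0.75, Fgfr1 at 9.22 ± 0.66 and Fgfr4 at 4.66 ± 0.35 CPM per kb. Whether introns were counted is not given in the sources used here, and the exon length is that of the gene model, so these levels are approximate.

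**Figure D1:**
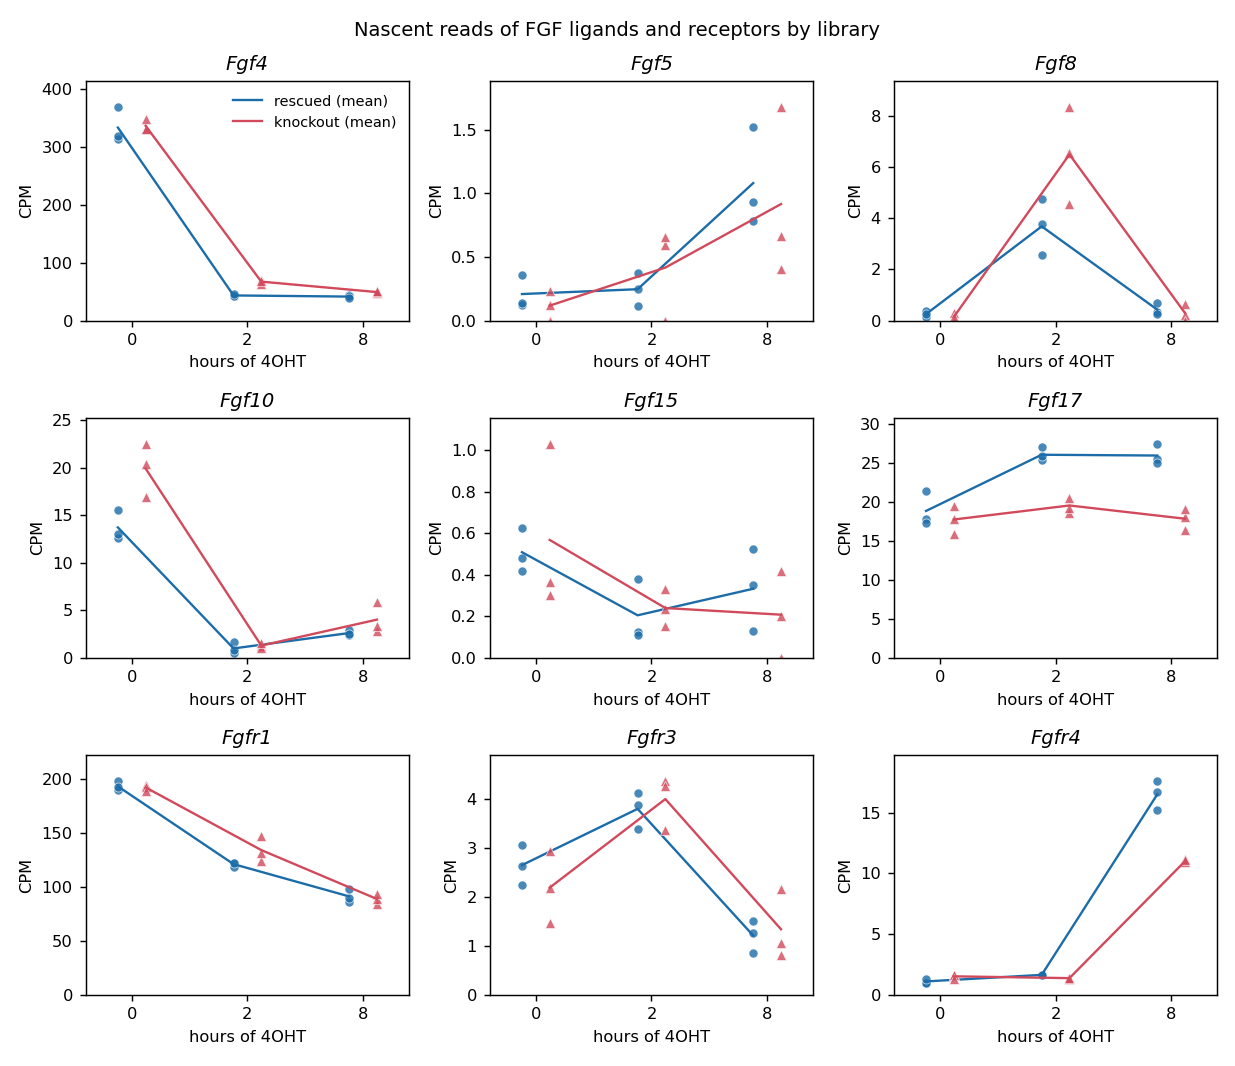
CPM of each of the 9 genes against hours of 4OHT, with 1 point per library and lines through the group means of rescued and knockout cells. Fgf4 and Fgf10 start high and are low from 2 h, Fgf8 is high at 2 h alone, and Fgfr4 is high at 8 h alone, at 15.2 to 17.6 CPM in rescued and 10.9 to 11.2 CPM in knockout libraries.

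The first comparison asked how the genes answered ERK activation with Med24 present. In rescued cells Fgf4, Fgf10 and Fgfr1 fell by 2 h, Fgf8 and Fgf17 rose, and Fgfr3 and Fgfr4 did not pass the test. That is 5 of 7 tested genes, in edgeR's quasi-likelihood test at an adjusted p (Benjamini-Hochberg over 14128 genes) under 0.05, where 66.2% of all genes tested passed (32.4% higher and 33.8% lower). By 8 h, 6 of 7 had changed from 0 h, Fgf17 and Fgfr4 upward and Fgf4, Fgf10, Fgfr1 and Fgfr3 downward, against 61.9% of all genes (30.7% higher and 31.3% lower). Between 2 h and 8 h, 5 of 7 changed, Fgf10 and Fgfr4 upward and Fgf8, Fgfr1 and Fgfr3 downward, against 61.0% of all genes (30.7% higher and 30.2% lower). These shares lie near those of all genes, so the counts alone say little about FGF genes, and the sizes and the timing of each gene carry the description. Fgf8 is among the 7 tested genes only through its 2 h libraries.

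In knockout cells the same tests called 5 of 7 genes at 2 h (Fgf8 and Fgfr3 higher, and Fgf4, Fgf10 and Fgfr1 lower), against 66.6% of all genes (31.5% higher and 35.2% lower). They called 5 of 7 at 8 h against 0 h (Fgfr4 higher, and Fgf4, Fgf10, Fgfr1 and Fgfr3 lower), against 57.8% (28.2% higher and 29.6% lower). Between 2 h and 8 h they called 6 of 7 (Fgf10 and Fgfr4 higher, and Fgf4, Fgf8, Fgfr1 and Fgfr3 lower), against 57.1% (29.4% higher and 27.7% lower). The median log2 change of the 7 genes at 2 h was 0.47 in rescued and -0.16 in knockout cells, where the medians of all genes were -0.02 and -0.05.

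**Figure D2:**
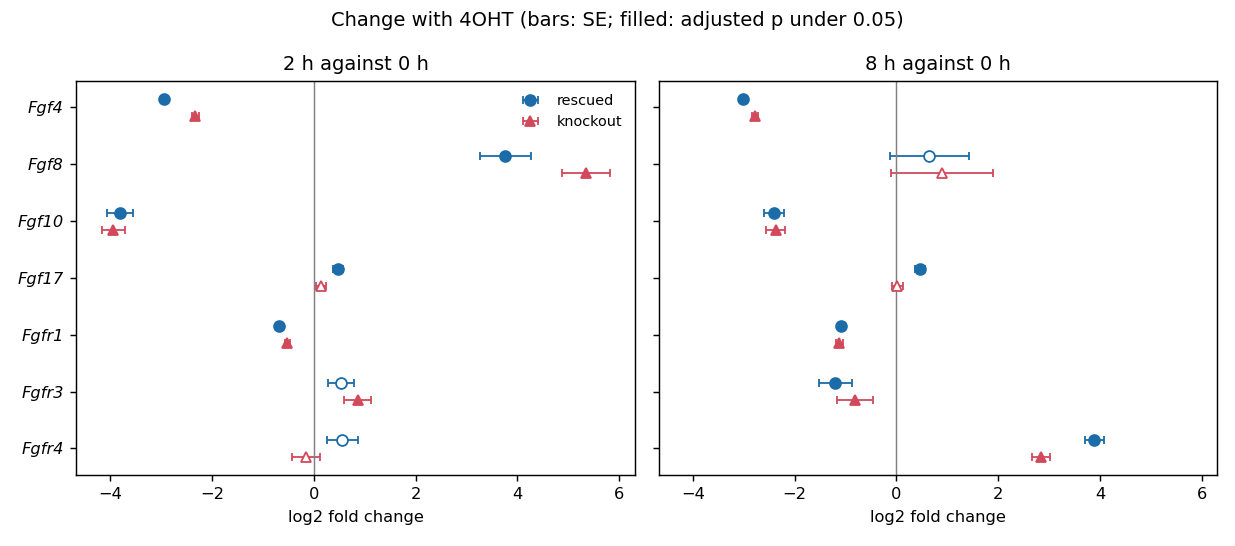
Log2 fold change (± SE) of the 7 tested genes at 2 h and 8 h of 4OHT against 0 h, circles for rescued and triangles for knockout cells, filled where the adjusted p is under 0.05. Fgf4 lies at -2.94 (rescued) and -2.33 (knockout) at 2 h, and Fgfr4 at 3.89 and 2.84 at 8 h.

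Fgf4, the self-made ligand of embryonic stem cells, lies at chr7:144847367-144865243 on the plus strand. It was at 313, 369 and 319 CPM in rescued clones A, B and C at 0 h, at 41.9, 43 and 45.1 at 2 h, and at 43.2, 42.1 and 38.6 at 8 h. The knockout libraries were at 330, 331 and 347 CPM at 0 h, at 70.1, 63.3 and 67.8 at 2 h, and at 47.1, 48.4 and 51.8 at 8 h. Every library with 4OHT was far below every library without it, and the 3 knockout libraries at 2 h were all above the 3 rescued ones.

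The fall of Fgf4 at 2 h in rescued cells was -2.94 ± 0.066 on the log2 scale (SE, 7.68-fold, adjusted p = 4.25e-26, edgeR), and at 8 h the difference from 0 h was -3.01 ± 0.065. From 2 h to 8 h no further change passed the test in rescued cells (-0.06, adjusted p = 0.484). In knockout cells the fall at 2 h was -2.33 ± 0.063 (5.02-fold, adjusted p = 7.25e-24), and it went on by -0.46 ± 0.075 to 8 h (adjusted p = 4.61e-06). The test of the difference between the responses at 2 h, knockout minus rescued, gave 0.61 ± 0.092 (adjusted p = 1.16e-05): the fall was smaller without Med24. That difference was 0.60 without the 3 libraries of raised abundant-gene share, and 0.49 with an adjusted p of 0.112 where libraries were scaled by their totals alone. Beside this, the summed CPM of the 10 pluripotency markers was 1740 to 1770 in rescued and 2040 to 2220 in knockout cells at 2 h, and 1840 to 1940 and 2050 to 2380 at 8 h. At each of these times 6 of the 10 were called higher and 0 lower in knockout cells. Of all genes, 10.8% were higher and 12.9% lower at 2 h, and 14.5% and 17.1% at 8 h. The part of these markers in the Fgf4 difference was not tested. At 8 h the difference between responses of Fgf4 was 0.22 (adjusted p = 0.109), and without rescued 0 h clone A it was 0.27 and called (adjusted p = 0.0496).

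Set directly against rescued cells, Fgf4 in knockout cells differed by 0.01 at 0 h (adjusted p = 0.914) and was 0.63 ± 0.073 higher at 2 h (1.54-fold, adjusted p = 5.05e-08). At 8 h it was 0.23 ± 0.077 higher (adjusted p = 0.0197), but this direction turned where libraries were scaled by their totals alone (-0.02, adjusted p = 0.907), and the call was lost without the 3 libraries of raised abundant-gene share (0.18, adjusted p = 0.205). The call at 8 h was also lost without rescued 8 h clone C (0.19, adjusted p = 0.0925) or knockout 8 h clone C (0.20, adjusted p = 0.0794).

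Fgf4 lies between Fgf3, another secreted ligand, 2.9 kb away on its lower-coordinate side, and Fgf15, 31.3 kb away on the other side. Fgf3 stayed low, at 0.931 ± 0.13, 0.872 ± 0.33 and 0.779 ± 0.41 CPM in rescued cells at 0 h, 2 h and 8 h, and none of its changes there passed the test. In knockout cells Fgf3 fell by 1.58 on the log2 scale at 2 h (adjusted p = 0.000996, edgeR), from 1.62 ± 0.36 to 0.529 ± 0.11 CPM. These groups held 44 and 13 counts of it. The difference between the 2 h responses of Fgf3, knockout minus rescued, was -1.49 and not called (adjusted p = 0.0943).

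Fgf15, the mouse counterpart of the gut hormone FGF19 that limits bile acid synthesis, lies at chr7:144896531-144900953 on the plus strand. Its counts were 5, 3 and 4 in rescued clones A, B and C at 0 h, 3, 1 and 1 at 2 h, and 8, 1 and 3 at 8 h. In knockout cells they were 9, 3 and 3 at 0 h, 1, 2 and 3 at 2 h, and 2, 0 and 2 at 8 h. All 18 libraries held 54 counts of it in all, and in a fit with no filter none of its 11 comparisons passed the test (lowest adjusted p = 0.155, edgeR). A change of Fgf15 was not detectable at this depth.

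Fgf5, a ligand that marks the epiblast after implantation and the cells that leave the naive state, lies at chr5:98254184-98277030 on the plus strand. Its counts were 1, 1 and 3 in rescued clones A, B and C at 0 h, 2, 3 and 1 at 2 h, and 12, 12 and 8 at 8 h. In knockout cells they were 2, 0 and 1 at 0 h, 0, 5 and 6 at 2 h, and 4, 4 and 8 at 8 h. The 8 h libraries were above the 0 h libraries in both kinds of cell, and the levels remained near the floor throughout.

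For rescued cells the ratio of the summed counts of Fgf5 at 8 h and 0 h was 4.73 (exact 95% counting interval 1.83 to 15.5), and for knockout cells it was 6.91 (1.98 to 37). In the fit with no filter on low counts the 8 h difference was 2.20 ± 0.65 in rescued (adjusted p = 0.00225, edgeR) and 2.65 ± 0.82 in knockout cells (adjusted p = 0.00388). At 2 h the difference was 0.18 in rescued (adjusted p = 0.958) and 1.89 in knockout cells (adjusted p = 0.0691). The difference between the responses at 8 h was 0.45 ± 1.1 (adjusted p = 0.945). Beside this stood the summed CPM of 8 formative and primed epiblast markers. In rescued cells that sum was 207 to 216 at 0 h, 428 to 459 at 2 h and 496 to 516 at 8 h. In knockout cells it was 250 to 278, 372 to 386 and 448 to 516. How far these markers go with Fgf5 was not tested.

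Fgf8, a ligand of the primitive streak and of the midbrain-hindbrain organizer, lies at chr19:45736798-45742915 on the minus strand. It was at 0.375, 0.139 and 0.24 CPM in rescued clones A, B and C at 0 h, at 3.77, 4.75 and 2.55 at 2 h, and at 0.327, 0.253 and 0.696 at 8 h. Knockout clones were at 0, 0.303 and 0.122 CPM at 0 h, at 4.58, 8.38 and 6.57 at 2 h, and at 0.202, 0.666 and 0 at 8 h. Fgf8 was thus near the floor at 0 h and 8 h and above it in all 6 libraries at 2 h, with summed counts of 91 in rescued and 161 in knockout cells at that time.

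Fgf8 passed the filter on low counts only through its 2 h libraries. A gene this low at 0 h and 8 h could be tested only if it was high at 2 h. The direction of its changes among tested genes was therefore set by the filter, and the values describe their size. Fgf8 rose by 3.76 ± 0.5 on the log2 scale at 2 h in rescued cells (13.6-fold, adjusted p = 1.06e-07, edgeR) and fell again by 3.11 from 2 h to 8 h (adjusted p = 1.34e-07). In knockout cells the rise was 5.34 ± 0.47 (adjusted p = 2.12e-11), from a 0 h group of 4 counts in all, and the fall to 8 h was -4.45 ± 0.45. Without knockout 0 h clone B the rise was 6.49, and without knockout 8 h clone B the fall was -5.46. The level at 8 h did not differ from 0 h by the test in rescued (0.65, adjusted p = 0.488) or knockout cells (0.90, adjusted p = 0.464, and -0.12 without knockout 8 h clone B). At 2 h Fgf8 was 0.86 ± 0.25 higher in knockout than in rescued cells (adjusted p = 0.0111), although knockout clone A, at 4.58 CPM, lay below rescued clone B, at 4.75.

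That call on Fgf8 was lost without rescued 2 h clone C (0.63, adjusted p = 0.106), without knockout 2 h clone B (0.64, adjusted p = 0.115), with DESeq2 (adjusted p = 0.0917) and with library totals alone (adjusted p = 0.0533), and it was 1.03 without the 3 libraries of raised abundant-gene share. The test of the difference between the 2 h responses gave 1.58 ± 1.1 (adjusted p = 0.383). The nearest gene, Npm3, a histone chaperone gene 4.8 kb away on the same strand, rose by 0.82 in rescued and 0.64 in knockout cells at 2 h, and was still 0.51 and 0.65 higher at 8 h than at 0 h (all 4 called, edgeR). Fbxw4, 76.5 kb away on the other side, went the other way at 2 h. It was -0.74 in rescued (adjusted p = 0.00677, edgeR) and -0.53 in knockout cells (adjusted p = 0.0403).

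Fgf10, the ligand that drives outgrowth of limb and lung buds, lies at chr13:118669791-118792115 on the plus strand. It was at 12.6, 15.5 and 13 CPM in rescued clones A, B and C at 0 h, at 1.63, 0.5 and 0.777 at 2 h, and at 2.42, 2.91 and 2.44 at 8 h. The knockout values were 22.5, 20.4 and 16.9 CPM at 0 h, 1.22, 1.06 and 1.53 at 2 h, and 2.82, 5.83 and 3.35 at 8 h. All libraries at 2 h were lowest and those at 8 h intermediate, and before 4OHT the 3 knockout libraries were all above the 3 rescued ones.

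The fall of Fgf10 at 2 h was -3.81 ± 0.26 in rescued (14-fold, adjusted p = 6.92e-14, edgeR) and -3.94 ± 0.23 in knockout cells (15.4-fold, adjusted p = 1.53e-15). From 2 h to 8 h it rose by 1.39 ± 0.36 in rescued (adjusted p = 0.00123) and by 1.57 ± 0.33 in knockout cells (adjusted p = 0.000176), and at 8 h it was still -2.41 and -2.37 from its 0 h level. The differences between the responses were -0.14 at 2 h (adjusted p = 0.898) and 0.04 at 8 h (adjusted p = 0.95).

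Before 4OHT Fgf10 was 0.55 ± 0.15 higher in knockout than in rescued cells (1.46-fold, adjusted p = 0.00907). It was the only 1 of the 7 genes called at 0 h, where 16.4% of all genes were called (6.81% higher and 9.64% lower), and the call was lost without rescued 0 h clone A (0.49, adjusted p = 0.0504) or knockout 0 h clone A (0.45, adjusted p = 0.0653). At 2 h and 8 h the differences were 0.41 (adjusted p = 0.561) and 0.59 (adjusted p = 0.0993). The latter was 0.88 and called without knockout 8 h clone A (adjusted p = 0.0196), and 0.15 without the 3 libraries of raised abundant-gene share (adjusted p = 0.81). Summed primitive endoderm and 2-cell-like markers were also higher in the knockout libraries at 0 h (the values are given above). Of the 6 2-cell-like genes, 5 had a mean under 1 CPM there. Higher as well were the sums of epiblast (250 to 278 against 207 to 216 CPM), trophectoderm (203 to 208 against 168 to 181) and mesoderm markers (11.2 to 11.8 against 8.91 to 11.1). The sum of pluripotency markers was lower. The part of any of these in the difference of Fgf10 was not tested. An antisense gene that was not analysed here, Gm16263, overlaps Fgf10, and where strand was not used its reads cannot be told apart from those of Fgf10.

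Fgf17, a close relative of Fgf8 in the same ligand subfamily, lies at chr14:70636203-70642268 on the minus strand. It was at 21.4, 17.8 and 17.2 CPM in rescued clones A, B and C at 0 h, at 25.3, 25.9 and 27 at 2 h, and at 25.5, 24.9 and 27.4 at 8 h. Fgf17 in knockout cells was at 19.4, 15.9 and 17.8 CPM at 0 h, at 18.6, 19.2 and 20.5 at 2 h, and at 18, 19.1 and 16.4 at 8 h. The rescued libraries with 4OHT stood above all other libraries, while the knockout libraries with 4OHT overlapped those without it.

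In rescued cells Fgf17 rose by 0.47 ± 0.098 at 2 h (1.39-fold, adjusted p = 0.000103, edgeR) and was 0.46 ± 0.096 higher at 8 h than at 0 h (adjusted p = 0.000109). With library totals alone the 2 h rise was 0.31 and no longer called (adjusted p = 0.0863). In knockout cells the differences were 0.14 at 2 h (adjusted p = 0.212) and 0.02 at 8 h (adjusted p = 0.867), and with library totals alone these were -0.14 and -0.33, neither called.

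Against rescued cells Fgf17 in knockout cells was -0.09 at 0 h (adjusted p = 0.611), -0.42 ± 0.097 at 2 h (adjusted p = 0.00152) and -0.53 ± 0.099 at 8 h (1.44-fold lower, adjusted p = 0.000103). The test of the difference between the 8 h responses gave -0.44 ± 0.14 (adjusted p = 0.0335), and that at 2 h gave -0.33 ± 0.14 (adjusted p = 0.135). The 8 h call on the difference between responses was lost with DESeq2 (adjusted p = 0.0973), with the groups compared fitted alone (adjusted p = 0.0573), without the 3 libraries of raised abundant-gene share (adjusted p = 0.0829) and in 8 of the fits that left out 1 library (rescued 0 h B or C, rescued 8 h A or C, knockout 0 h A or C, knockout 8 h A or C), where it ran from -0.45 to -0.36. Without rescued 0 h clone A the 2 h difference between responses was -0.43 and called (adjusted p = 0.0496).

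The gene Dmtn, which encodes an actin-bundling protein of the membrane skeleton, starts 155 bases past the 3′ end of Fgf17 on the same strand. Dmtn was at 85.8 ± 4.2, 64.2 ± 4.4 and 83.8 ± 3.7 CPM in rescued and 73.5 ± 6.6, 42.6 ± 1 and 43.3 ± 2.9 CPM in knockout cells at 0 h, 2 h and 8 h. At 2 h in rescued cells Dmtn fell by 0.42 while Fgf17 rose, and at 8 h Dmtn was -0.94 ± 0.071 in knockout against rescued cells (adjusted p = 4.95e-12, edgeR), in the same direction as Fgf17. How many reads of either gene came from transcription running through the other was not tested.

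Fgf4 made up most of the ligand signal before 4OHT and less of it afterwards. Over all 22 FGF ligand genes, including the intracellular relatives Fgf11 to Fgf14, the summed level was 414 ± 32 CPM in rescued and 419 ± 7.7 CPM in knockout cells at 0 h, and 112 ± 0.49 and 112 ± 0.8 CPM at 8 h. Scaled to exon length, Fgf4 held 78.7% ± 2.4 (SD, n = 3) of that signal in rescued cells at 0 h, 27.3% ± 0.35 at 2 h and 30.6% ± 2.1 at 8 h. In knockout cells it held 78.5% ± 1.4, 40.6% ± 3.3 and 38.9% ± 2.5. Fgf17 held 8.44%, 31% and 36.3% in rescued and 7.82%, 22.2% and 26.7% in knockout cells at the same times. The share of Fgf8 was 5.52% in rescued and 9.27% in knockout cells at 2 h, and under 1% at 0 h and 8 h.

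**Figure D3:**
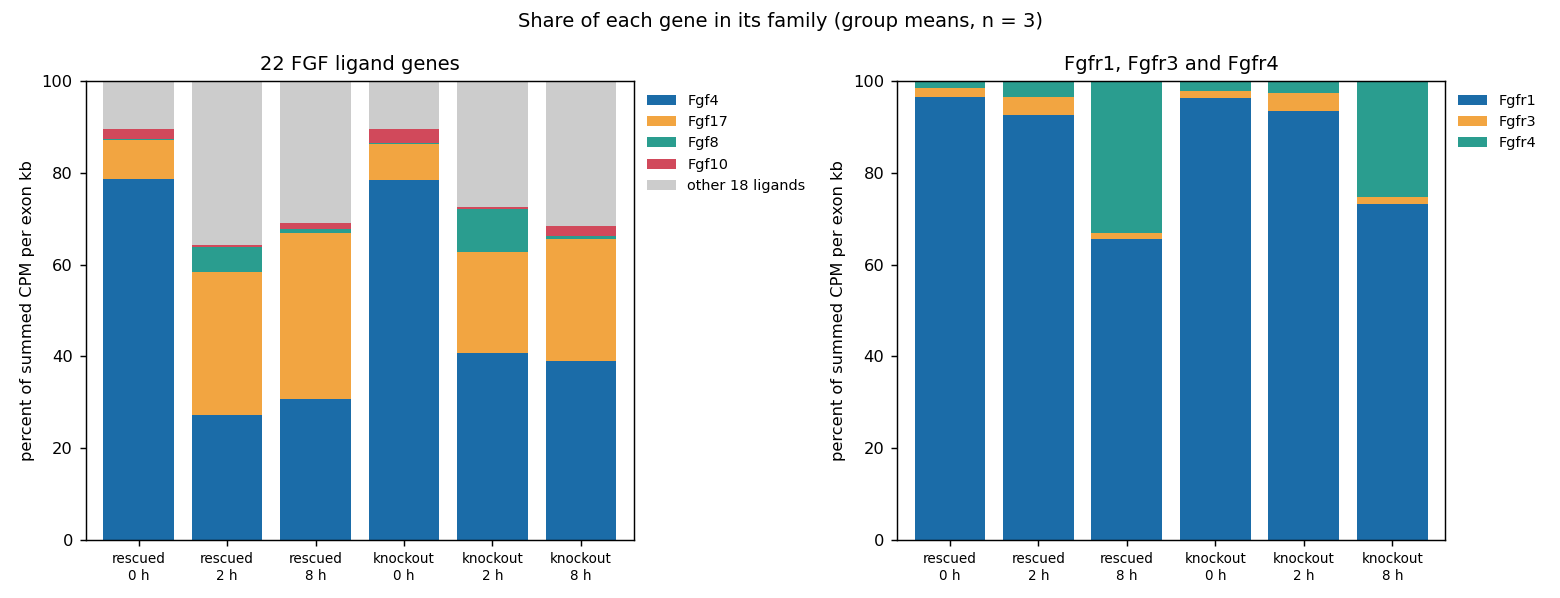
Stacked bars of each gene's percent of the summed CPM per exon kb, by group (means of 3 libraries), for 22 FGF ligand genes and for the receptors Fgfr1, Fgfr3 and Fgfr4. Fgf4 covers 78.7% of the ligand bar in rescued cells at 0 h and 30.6% at 8 h, and Fgfr4 covers 1.54% and 33.2% of the receptor bar.

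Fgfr1, the main FGF receptor of embryonic stem cells, lies at chr8:25513654-25575718 on the plus strand. It was at 190, 198 and 192 CPM in rescued clones A, B and C at 0 h, at 122, 118 and 122 at 2 h, and at 85.7, 89.2 and 98.3 at 8 h. In knockout cells it was at 194, 192 and 189 CPM at 0 h, at 147, 124 and 131 at 2 h, and at 83.9, 88.5 and 93.5 at 8 h. In both kinds of cell the 3 times did not overlap, and each later time was lower.

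Fgfr1 fell by 0.68 on the log2 scale at 2 h in rescued (SE 0.058, adjusted p = 1.08e-11, edgeR) and by 0.52 in knockout cells (SE 0.057, adjusted p = 2.49e-09). At 8 h it was -1.09 ± 0.059 (2.13-fold) and -1.12 ± 0.061 (2.17-fold) from 0 h. Knockout against rescued it was -0.01 at 0 h (adjusted p = 0.937), 0.14 at 2 h (adjusted p = 0.0774) and -0.04 at 8 h (adjusted p = 0.656). Without knockout 2 h clone B the 2 h difference was 0.20 and called (adjusted p = 0.0292), and with library totals alone the 8 h difference was -0.31 and called (adjusted p = 0.0423). The differences between the responses, 0.15 at 2 h and -0.03 at 8 h, did not pass the test (adjusted p = 0.239 and 0.841). The antisense gene Gm16159, not analysed here, overlaps Fgfr1.

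Fgfr3, a receptor best known for restraining growth of cartilage, lies at chr5:33721674-33737068 on the plus strand. It was at 2.25, 3.06 and 2.64 CPM in rescued clones A, B and C at 0 h, at 3.39, 4.13 and 3.88 at 2 h, and at 0.85, 1.26 and 1.51 at 8 h. Knockout clones were at 2.18, 2.93 and 1.46 CPM at 0 h, at 3.36, 4.37 and 4.27 at 2 h, and at 0.806, 2.16 and 1.05 at 8 h. The libraries at 2 h were highest in both kinds of cell, and at 8 h knockout clone B, at 2.16 CPM, lay within the range of its 0 h group.

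Fgfr3 was 0.53 ± 0.26 higher at 2 h than at 0 h in rescued cells, which did not pass the test (adjusted p = 0.0756, edgeR), and rose by 0.86 ± 0.26 in knockout cells (adjusted p = 0.00471). The difference between these responses was 0.33 and not called (adjusted p = 0.632). With library totals alone the knockout rise was 0.58 and not called (adjusted p = 0.0771). From 2 h to 8 h it fell by 1.73 in rescued (adjusted p = 6.33e-06) and by 1.67 in knockout cells (adjusted p = 3.99e-05). At 8 h it was -1.20 ± 0.32 from 0 h in rescued cells (adjusted p = 0.00161).

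The difference of Fgfr3 between 8 h and 0 h in knockout cells, -0.81 ± 0.35, lay just under the threshold (adjusted p = 0.0476). It was not called in 13 of the fits that left out 1 library (any rescued 0 h or 2 h clone, rescued 8 h B, knockout 0 h A or B, knockout 2 h B or C, knockout 8 h A or C), where it ran from -0.83 to -0.42, nor with DESeq2 (adjusted p = 0.132), DESeq2's size factors (0.0527), the compared groups alone (0.0977) or without the abundant genes (0.0509), so that 17 of 26 alternatives lost the call. It was -0.42 without knockout 8 h clone A, -0.53 without knockout 0 h clone B, and -1.44 without the 3 libraries of raised abundant-gene share. Knockout and rescued cells differed by -0.24, 0.09 and 0.15 at 0 h, 2 h and 8 h, none of which passed the test (adjusted p = 0.626, 0.841 and 0.813). Without the 3 libraries of raised abundant-gene share the 8 h difference turned to -0.49 (adjusted p = 0.582), and the knockout fall from 2 h to 8 h was -2.41.

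Fgfr4, a receptor that in liver pairs with beta-Klotho to sense FGF15, lies at chr13:55152640-55168759 on the plus strand. It was at 1, 0.975 and 1.32 CPM in rescued clones A, B and C at 0 h, at 1.63, 1.63 and 1.66 at 2 h, and at 17.6, 15.2 and 16.7 at 8 h. In knockout cells it was at 1.61, 1.61 and 1.34 CPM at 0 h, at 1.37, 1.3 and 1.42 at 2 h, and at 10.9, 11.2 and 11.1 at 8 h. All 6 libraries at 8 h stood far above the other 12, and at 8 h every knockout library was below every rescued one.

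At 8 h Fgfr4 was 3.89 ± 0.18 higher than at 0 h in rescued cells (14.9-fold, adjusted p = 3.00e-18, edgeR) and 2.84 ± 0.18 higher in knockout cells (7.16-fold, adjusted p = 2.27e-14). At 2 h the differences from 0 h were 0.56 in rescued (adjusted p = 0.148) and -0.16 in knockout cells (adjusted p = 0.684). From 2 h to 8 h it rose 10.1-fold in rescued and 7.99-fold in knockout cells. Knockout against rescued, Fgfr4 was 0.46 higher at 0 h (adjusted p = 0.414) and -0.59 ± 0.12 at 8 h (1.51-fold lower, adjusted p = 0.000172). The next test also rests on the 0 h groups, whose summed counts of Fgfr4 were 26 in rescued and 41 in knockout cells. The test of the difference between the 8 h responses gave -1.05 ± 0.32 (adjusted p = 0.0305). It was -1.07 without the 3 libraries of raised abundant-gene share (adjusted p = 0.0409), and was not called with DESeq2 (adjusted p = 0.0971) or in 5 of the fits that left out 1 library (rescued 0 h A or B, rescued 8 h A, knockout 0 h A or B), where it ran from -1.01 to -0.98.

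Beside Fgfr4, summed trophectoderm markers in rescued cells were at 168 to 181 CPM at 0 h. They were already at 437 to 453 CPM at 2 h, and at 656 to 709 at 8 h. In knockout cells they were at 203 to 208, 168 to 178 and 488 to 570 CPM. Among other lists, the sums of epiblast, mesoderm and fibroblast markers were also higher at 8 h than at 0 h in both kinds of cell. The sums of primitive endoderm and pluripotency markers were lower at 8 h in both. The part of any of these markers in the rise of Fgfr4 was not tested. Klb, the gene for beta-Klotho, was at 1.26 ± 0.29, 2.79 ± 0.3 and 2.61 ± 0.68 CPM in rescued cells at 0 h, 2 h and 8 h, and rose at 2 h by 1.13 (adjusted p = 0.00107). In knockout cells Klb was at 2 ± 0.36, 2.9 ± 0.17 and 2.62 ± 0.52 CPM, and its 2 h difference of 0.53 did not pass the test (adjusted p = 0.0678). The difference between the 2 h responses of Klb was not called either.

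Among the 3 receptors, and scaled to exon length, Fgfr1 held 96.6% ± 0.33 of the summed signal in rescued cells at 0 h, 92.5% ± 0.46 at 2 h and 65.6% ± 2.3 at 8 h. Fgfr4 went from 1.54% ± 0.28 to 33.2% ± 2.5 over the same time, and in knockout cells from 2.13% ± 0.19 to 25.4% ± 0.85. Fgfr3 stayed between 1.2% and 4.02% in every group. Fgfr2 was not included: its row belongs to the 13 abundant genes that vary together between libraries, with a Pearson r of 0.977 to Cdk8 within groups (18 libraries that share those groups and the same depth range), and its mean ran from 3390 ± 380 to 7380 ± 3800 CPM. By the same measure r was 0.713 for Fgfr1 and 0.538 for Fgf4, and between -0.35 and 0.299 for the other 5 tested genes. Without the 3 libraries of raised abundant-gene share Fgfr1 changed by -0.57 at 2 h and by -1.18 at 8 h in knockout cells.

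The neighbours of Fgfr1 and Fgfr3 are themselves members of shared gene families. Fgfr1 lies between Tacc1, 257.1 kb away, and Letm2, 2.8 kb away, and Fgfr3 lies between Tacc3, 42.7 kb away, and Letm1, 2.6 kb away; TACC proteins bind the spindle and LETM proteins sit in the inner mitochondrial membrane. Tacc1 rose from 99.9 ± 4.4 to 233 ± 6.4 CPM at 2 h in rescued and from 85.5 ± 7.4 to 335 ± 7.7 CPM in knockout cells, while Fgfr1 fell. Tacc3 rose by 0.39 in rescued and 0.38 in knockout cells at 2 h, and Letm1 by 0.31 and 0.43 (all called, edgeR), at the time at which Fgfr3 was highest. Letm2 fell by 0.45 in rescued and 0.53 in knockout cells by 8 h, when Fgfr1 was lowest. Nsd1, a histone methyltransferase gene 41.0 kb beyond Fgfr4, fell by 0.43 in rescued and 0.31 in knockout cells by 8 h, against the direction of Fgfr4. Zfp346, 17.8 kb from Fgfr4 on its other side, differed by -0.07 in rescued and 0.07 in knockout cells at 8 h, neither called.

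The next comparison asked what the loss of Med24 changed at each time. At 0 h the call on Fgf10 alone passed. At 2 h, 3 of 7 genes differed between knockout and rescued cells (Fgf4 and Fgf8 higher, Fgf17 lower), where 23.7% of all genes were called (10.8% higher and 12.9% lower). At 8 h, 3 of 7 differed (Fgf4 higher, Fgf17 and Fgfr4 lower), where 31.6% of all genes were called (14.5% higher and 17.1% lower). The difference between responses was called for 1 of 7 at 2 h (Fgf4), against 13.2% of all genes (6.60% in each direction), and for 2 of 7 at 8 h (Fgf17 and Fgfr4), against 16.8% (7.88% higher and 8.88% lower). On the log2 scale the 7 genes had median differences of -0.01, 0.14 and -0.04 at the 3 times, and all genes had 0.01, 0.00 and 0.00.

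**Figure D4:**
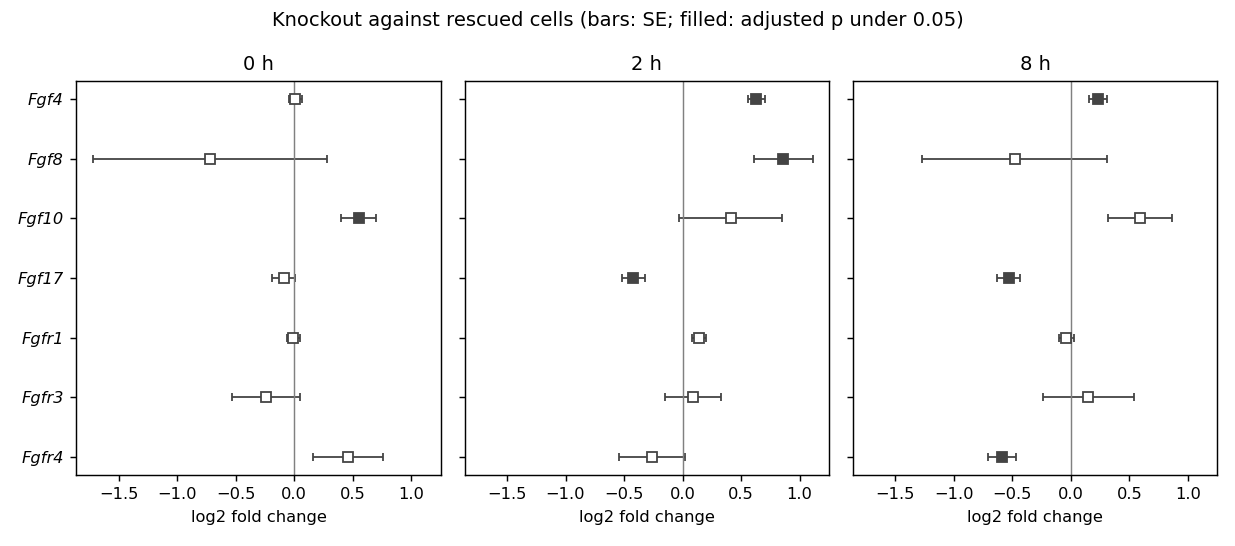
Log2 difference (± SE) between knockout and rescued cells for the 7 tested genes at 0 h, 2 h and 8 h of 4OHT, on 1 shared axis, filled where the adjusted p is under 0.05. Fgf17 lies at -0.09, -0.42 and -0.53 and Fgf4 at 0.01, 0.63 and 0.23 from left to right.

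Scaling moved the balance of all calls. With library totals alone in place of TMM, the median log2 change of all genes became -0.177 in rescued and -0.332 in knockout cells at 2 h, -0.082 and -0.381 at 8 h, and -0.257 for knockout against rescued cells at 8 h, where the TMM medians were within 0.049 of 0. The share of calls that were higher went from 48.9% to 31.9% (rescued 2 h), 47.2% to 21.2% (knockout 2 h), 48.8% to 14.7% (knockout 8 h), 51.5% to 43.8% (knockout, 2 h to 8 h), 45.7% to 18.4% (knockout against rescued, 2 h) and 45.8% to 8.17% (knockout against rescued, 8 h). It went from 50% to 9.68% and from 47% to 6.15% for the differences between responses at 2 h and 8 h, from 50.4% to 61.2% for rescued 8 h against 2 h, and from 41.4% to 50.7% at 0 h.

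The rest of the FGF pathway was counted over lists of genes. Of 16 other FGF ligand genes 8 could be tested, and at 2 h in rescued cells 3 rose and 1 fell: Fgf14 by 1.32, Fgf18 by 1.03 and Fgf13 by 0.63 upward, and Fgf12 by 0.51 downward. That is 4 of 8, against 66.2% of all genes (32.4% higher and 33.8% lower). Fgf12, Fgf13 and Fgf14 encode intracellular relatives that bind sodium channels, and Fgf18 a secreted ligand of bone and lung. None of the 8 passed the test between knockout and rescued cells at 8 h, where 31.6% of all genes did (14.5% higher and 17.1% lower). Fgf20 was 0.40 higher (adjusted p = 0.423, edgeR) and Fgf22 -0.29 (adjusted p = 0.438).

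Of 10 other receptors and extracellular partners 5 could be tested, and 3 rose and 1 fell at 2 h in rescued cells, where 32.4% of all genes were higher and 33.8% lower. Fgfbp1, a carrier that frees ligands from heparan sulfate, rose by 1.28 and Fgfrl1, a receptor without a kinase, by 0.67, beside Klb. Flrt2, a membrane partner of FGF receptors, fell by 0.43, and in knockout cells it was 0.56 higher than in rescued cells already at 0 h (adjusted p = 0.00527), 0.92 higher at 2 h and 0.73 higher at 8 h.

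Of 18 tested genes for heparan sulfate proteoglycans and their synthesis, 3 rose and 11 fell at 2 h in rescued cells (32.4% and 33.8% of all genes), with a median of -0.39 beside -0.02 over all genes. Hs6st1, a sulfotransferase, fell from 407 ± 9.1 to 149 ± 2.5 CPM. The glypican Gpc3 fell from 86.6 ± 7.7 to 26.4 ± 0.56 CPM, and the syndecan Sdc4 rose from 100 ± 5.1 to 242 ± 14 CPM. Gpc4 fell by 0.88 in rescued cells, was 0.05 different in knockout cells (adjusted p = 0.624), and was 0.93 higher in knockout than in rescued cells at 2 h (adjusted p = 7.86e-09).

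Of 22 adaptor and relay genes 15 rose and 4 fell at 2 h in rescued cells (32.4% and 33.8% of all genes), and 17 rose and 1 fell in knockout cells (31.5% and 35.2%). Braf, a RAF kinase, rose from 164 ± 9.9 to 347 ± 11 CPM in rescued and from 147 ± 4 to 453 ± 26 CPM in knockout cells. Nras rose by 0.68 and Map2k2, a MEK gene, by 0.78 in rescued cells, and the adaptor Frs3 fell by 1.57.

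Of 12 tested feedback inhibitors and target genes of FGF signalling, 11 rose and 0 fell at 2 h in rescued cells (32.4% and 33.8% of all genes) and 10 rose and 1 fell in knockout cells (31.5% and 35.2%), with a median of 1.53 and 1.64 on the log2 scale. Spry4, a Sprouty inhibitor of the pathway, rose from 78.7 ± 8 to 1540 ± 22 CPM in rescued and from 37.5 ± 5 to 817 ± 47 CPM in knockout cells. The MAP kinase phosphatase gene Dusp6 rose by 2.10 and Dusp4 by 3.32 in rescued cells, and the ETS factor gene Etv4 by 3.10. At 8 h 2 of the 12 were higher and 9 lower in knockout than in rescued cells, with a median of -0.30, where 14.5% of all genes were higher and 17.1% lower. Spry4 was -1.14 and Dusp6 -0.59 at that time. Spry4 was already lower in knockout cells at 0 h (37.5 ± 5 against 78.7 ± 8 CPM), so its 8 h difference alone does not show a weaker response.

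The genes whose profile was most like each tested FGF gene were ranked by Pearson's r of log2 CPM over the 18 libraries, among about 10433 genes, as a description without a test, since libraries of a group share their treatment. Fgf4 was most like Fxyd6 (r = 0.992), which went from 69.9 to 9 CPM at 2 h in rescued cells, and like Fgd4 (0.989) and Foxi3 (0.987). Fgf8 was most like Rcor1 (0.968), Dpf1 (0.964) and Arid4b (0.963), which encode chromatin proteins and were highest at 2 h. Fgf10 was most like Osbpl1a (0.974) and Unc5b (0.972), and the third gene carries a date in place of a symbol in the deposited table.

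Fgf17 was most like Smox (r = 0.935), which went from 13.6 to 54.9 and 42.1 CPM in rescued cells and from 11.5 to 18.7 and 14.9 CPM in knockout cells, and like Sh3pxd2b (0.91) and Bdkrb2 (0.906). Fgfr1 was most like Prmt8 (0.985), Lrp4 (0.978) and Lmx1b (0.976). Fgfr3 was most like Ripk1 (0.934), Mgrn1 (0.929) and Cdc42bpa (0.914). Fgfr4 was most like Podxl (0.99), the gene of podocalyxin, which went from 39.5 to 57.7 and 238 CPM in rescued and from 54.1 to 44.8 and 170 CPM in knockout cells, and like Bbx (0.988) and Mpzl2 (0.986).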

How the data were processed

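Nascent RNA libraries of 6 groups of 3 clones were analysed from the deposited table, which holds raw counts of reads for each gene, as the authors deposited them. Per the submitters' processing notes, STAR, featureCounts and DESeq were used with mm10, and no roles or order are given. For versions, annotation, strand and introns nothing is stated in the sources used here, so reads of overlapping genes cannot be told apart. Groups come from the sample titles. The titles name the libraries of a group as clones A, B and C, and do not say whether a letter marks the same clone across groups. P-values measure only the spread between these libraries, and how much of it is technical is not known. Replicate pairs differed beyond sampling noise (chi-square per degree of freedom at least 1.52).

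Counts were fitted with edgeR 4.0.16 in R 4.3.3 (filterByExpr, TMM, quasi-likelihood F test, 6 group means), and 11 comparisons were each adjusted by Benjamini-Hochberg over 14128 genes at 0.05. CPM values are TMM-scaled, fold changes are log2 ± SE, and levels are mean ± SD. Intervals and floors (3 counts) cover counting error only. Gene positions and exon lengths are those of GENCODE M21 (GRCm38, the assembly of mm10), which held 98.7% of symbols. Promoters are from RefSeq, where 5 of the 9 genes matched. The fit was tested on simulated data. Alternatives were other scalings, DESeq2 1.42.0, no filter, the compared groups alone, a clone block, each library left out, and 2 chosen after seeing the data: leaving out the 3 libraries of raised abundant-gene share, and leaving out the abundant genes.

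The FGF genes and the pathway and marker lists were chosen with earlier results of these data known. Named genes were Med24, the 9 genes, in each pathway list up to 4 with the smallest p at 2 h in rescued cells and up to 2 for knockout against rescued at 8 h, the 3 genes most alike in profile (mean of at least 5 CPM), and the nearest protein-coding neighbours.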

Additional observations from a re-analysis of the deposited data

Results flagged for a closer look

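In 3 cases the response to 4OHT itself differed between knockout and rescued cells by the edgeR test of that difference. For Fgf4 at 2 h the difference was 0.61 on the log2 scale (adjusted p = 1.16e-05), a smaller fall in knockout cells. For Fgf17 at 8 h it was -0.44 (adjusted p = 0.0335), with a rise called in rescued cells and not in knockout cells. For Fgfr4 at 8 h it was -1.05 (adjusted p = 0.0305), a smaller rise in knockout cells, from low counts at 0 h. Of 26 alternatives, the call was lost in 1 for Fgf4, 11 for Fgf17 and 6 for Fgfr4.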

How the results depend on the processing

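Of 77 log2 differences (7 genes in 11 comparisons), the falls of Fgf4, Fgf10 and Fgfr1 at 2 h and 8 h, the rise of Fgf8 at 2 h and that of Fgfr4 at 8 h kept their direction and call in every alternative that gave a value. Of the 77, 17 changed sign under at least 1 alternative. Of these 17, 1 had been called, that of Fgf4 between knockout and rescued cells at 8 h, at -0.02 with library totals alone, and 16 had not been called. The number of FGF genes called was 0 to 1 over the fits that left out 1 library for knockout against rescued at 0 h, 1 to 2 for the difference between responses at 2 h and 0 to 2 for that at 8 h. With library totals alone the difference between responses at 2 h called 0. At 8 h it called 0 with DESeq2, 1 with the compared groups alone and 1 without the 3 libraries of raised abundant-gene share. Over all genes, library totals alone called 420 in place of 2324 at 0 h, 1661 in place of 3350 at 2 h and, for the difference between responses at 2 h, 589 in place of 1866. The causes were not tested. The clone letter as a replicate block changed none of the 77 calls and no count by over 1.5 times. Deviations of libraries with the same letter had a mean r of 0.022 (-0.27 to 0.17) and only 1 of 15 pairs of groups exceeded 0.1, so the letters were not taken as pairs (11 of 18 libraries were most like their own letter, a hint from the data alone). Fitting the compared groups alone removed Fgf8 or Fgf10 from some comparisons by the filter, so no value exists there. Low counts limit Fgf5, Fgf15, Fgf8 at 0 h and 8 h, Fgf10 at 2 h, Fgfr3, and Fgfr4 at 0 h and 2 h.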
